A study of Homo sapiens with 6 samples.

Results

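Matrix metalloproteinases (MMPs) and their tissue inhibitors (TIMPs) were measured by RNA sequencing in the human melanoma line LOX-IMVI, an established cell line, with and without knockdown of NFKBIZ. The 10 genes described are MMP1, MMP2, MMP3, MMP9, MMP10, MMP13, MMP14, TIMP1, TIMP2 and TIMP3, found by symbol among the 47432 genes that each table lists. They were chosen with their exon and intron reads in this same contrast known, so their values are given as a description. No p-value is printed for any of the 10, and meeting a limit on the adjusted p is likewise a description. NFKBIZ encodes IκBζ, a nuclear protein that regulates transcription together with NF-κB and related factors. Cells of the first group carried the control construct of the pLKO.1 lentiviral vector (shCtrl), and cells of the second carried a pLKO.1 short hairpin RNA against NFKBIZ (shNFKBIZ). Each group has 3 libraries. Both groups had been transduced with virus and selected with puromycin, and the knockdown rests on 1 hairpin, so the loss of NFKBIZ and any other action of that hairpin cannot be told apart.

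MMPs are zinc-dependent endopeptidases that cut collagens, gelatin, laminins and other components of the extracellular matrix. They are made as inactive proenzymes, and removal of the propeptide by plasmin, furin or another MMP makes them active. TIMPs bind the active site of an MMP and block it. TIMP2 also takes part, together with cell-surface MMP14, in the activation of proMMP2. In skin and melanoma these enzymes are studied for their part in invasion and in the remodelling of the matrix, and several of their genes are classical targets of the AP-1 and ETS transcription factors.

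The start regions of 4 of the 10 genes were found in the RefSeq promoter sequences of GRCh38.p14, which cover 250 bases before to 50 bases after a gene's start. They are MMP14 and TIMP1, the MMP and the TIMP of the 10 with the highest levels, and MMP10 and TIMP3, which had no exon read in any library. MMP1, MMP2, MMP3, MMP9, MMP13 and TIMP2 had no entry. The 30 bases from position -50 to -21 before the RefSeq start are shown for the 4 genes, 5′ to 3′ on the strand of the gene, to set the core promoter of abundant members beside that of undetected ones, and capitals mark the TATA motif TATAAA.
MMP14 (chr14:22836535-22836564, plus strand): gaggctgtgggagaagggagggaccagagg
TIMP1 (chrX:47582386-47582415, plus strand): cacccccgcccctagcgtggacatttatcc
MMP10 (chr11:102780649-102780678, minus strand): gatctcagcattgtctctgTATAAAagaaa
TIMP3 (chr22:32801655-32801684, plus strand): ggtccccgggggcccagcgctatatcactc
For MMP14 and TIMP1 the span in the deposited annotation begins inside these windows, because the RefSeq start lies downstream of it. Searched on both strands over the whole region, TATAAA was found in MMP10 alone, at position -31, and in 11.5% of all 35116 promoters. The AP-1 motif TGAGTCA was in none of the 4 regions and in 4.95% of all promoters. The ETS motif AGGAAG was in TIMP1 alone, at position -87, and in 33.6% of all promoters. The motifs do not overlap one another, and a match or its absence describes these letters in this window only.

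Libraries held between 22264473 and 24624839 total exon reads and between 1812526 and 1975528 intron reads. NFKBIZ itself had 1519, 1629 and 1674 exon reads in the shCtrl libraries and 474, 477 and 468 in the shNFKBIZ libraries, a log2 fold change of -1.78 with an SE of 0.0581 (adjusted p = 7.2e-17, edgeR quasi-likelihood test). Of the melanocytic markers, MLANA, SOX10 and S100B had no exon read and 1 of 8 was tested (MITF, 76 to 165 reads). MITF was lower in shNFKBIZ with an adjusted p of at most 0.05 but short of 2-fold (log2 fold change -0.77). The melanocytic markers summed to 3.19 to 4.23 TPM in shCtrl and 1.79 to 2.62 TPM in shNFKBIZ. Of 6 markers of dedifferentiated melanoma cells, 5 passed the filter on low counts (AXL, EGFR, VIM, ZEB1 and FOSL1) and NGFR did not. Of the 5 tested, 4 were higher and 1 was lower in shNFKBIZ, each by less than 2-fold. Of the markers of other cells that make MMPs, leukocyte, fibroblast and keratinocyte sums did not overlap between groups, whereas endothelial sums did. Among all single genes tested, 68.7% did not overlap between groups in scaled counts, so nothing is read from this. The summed level of 6 leukocyte markers was 96.9 to 100.4 TPM (reads scaled to gene length and library total) in shCtrl and 199 to 200.03 TPM in shNFKBIZ, nearly all of it CD68, while PTPRC had 0 or 1 read and CD14 1 to 5. The summed level of 6 fibroblast markers was 73.5 to 80.9 TPM in shCtrl and 60.0 to 61.4 TPM in shNFKBIZ, with DCN at 0 to 4 reads and LUM at 0 or 1. Of the 4 fibroblast markers tested, PDGFRA rose (log2 fold change 2.06), PDGFRB (-1.98) and THY1 (-1.07) fell, and FAP was lower but short of 2-fold. The summed level of 5 keratinocyte markers was 60.1 to 72.1 TPM in shCtrl and 73.1 to 80.7 TPM in shNFKBIZ, with KRT5 at 0 or 1 read. Of the 2 keratinocyte markers tested, KRT14 (4 to 24 reads) rose (1.37) and KRT10, which makes up most of that sum, did not meet the limit (0.09). Endothelial markers summed to less than 1 TPM in every library. The part of these cell types in the results was not tested. In bulk RNA a change in the number of expressing cells and a change in RNA per cell cannot be told apart.

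Of the 10 genes, 7 passed the filter on low counts, 5 MMPs and 2 TIMPs. The threshold was an adjusted p no higher than 0.05 together with a fold change of 2 or more. MMP3, MMP9 and MMP1 were past it, all higher in shNFKBIZ, beside 8.96% of all 13843 genes tested (3.84% higher and 5.12% lower). MMP14, MMP2, TIMP1 and TIMP2 had an adjusted p of at most 0.05 but stayed short of 2-fold, and their values were higher in shNFKBIZ too. All 7 thus met the limit on the adjusted p in exon reads, as did 65.3% of all genes (32.5% higher). None of the 7 overlapped between groups in CPM (counts scaled to the library total and its TMM factor), as was so for 68.7% of all genes (34.1% higher). The median log2 fold change was 0.95 over the 7 and 0.0043 over all genes tested. These counts describe genes chosen on this contrast, and nothing is read from them.

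**Figure D1:**
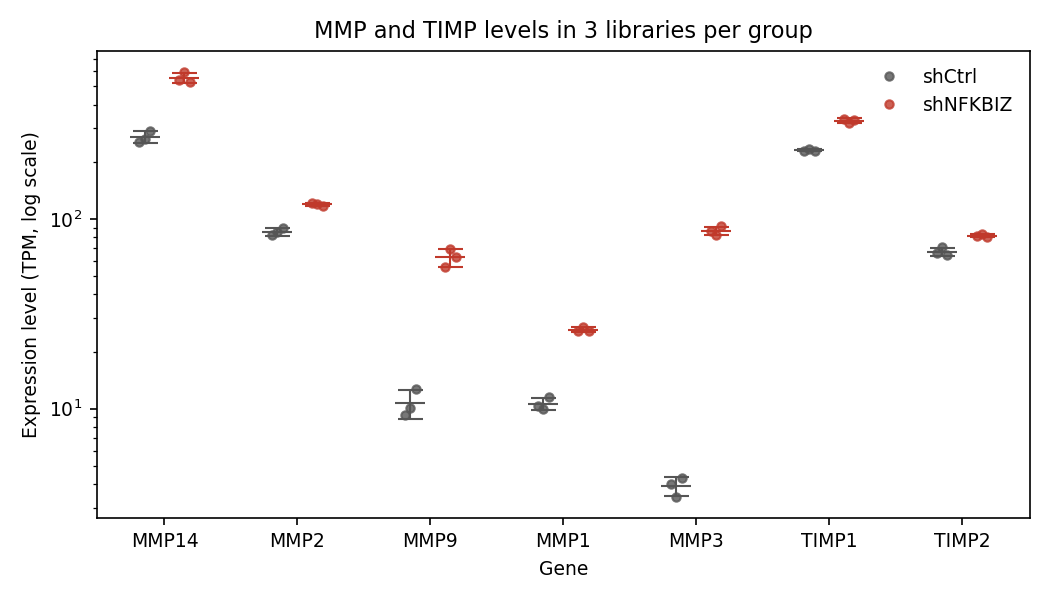
Expression level (TPM, log axis) of the 7 MMP and TIMP genes that passed the filter, in 3 shCtrl libraries (grey) and 3 shNFKBIZ libraries (red). Points are libraries, and lines are mean ± SD; MMP3 moves from 3.91 to 86.7 TPM, the widest gap, and TIMP2 from 67.2 to 81.7 TPM, the narrowest.

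MMP3, a stromelysin that cleaves proteoglycans, laminin and fibronectin and activates other proMMPs, differed most (ENSG00000149968, chromosome 11, 102835801 to 102843609, minus strand, hg38). Its level was 3.99, 3.44 and 4.30 TPM in the shCtrl libraries and 86.0, 82.5 and 91.4 TPM in the shNFKBIZ libraries. The lowest shNFKBIZ library was thus far above the highest shCtrl library, and the spread within either group was small against the gap. The raw exon reads behind these levels were 46, 41 and 46 against 934, 880 and 1008. The log2 fold change was 4.39 (SE 0.0946), a 20.95-fold difference after TMM scaling, from 3.91 ± 0.436 to 86.7 ± 4.47 TPM (SD, n = 3). In rank, MMP3 moved from above 24.3% of the genes tested in shCtrl to above 86.3% in shNFKBIZ. Of its exon reads, 99.8% mapped to 1 place only, and 54 reads in shCtrl against 1113 in shNFKBIZ spanned an exon-exon junction.

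MMP1, the interstitial collagenase that opens the triple helix of fibrillar collagen, lies in the same chromosome 11 cluster (ENSG00000196611, 102789401 to 102798160, minus strand). It stood at 10.3, 9.94 and 11.5 TPM in shCtrl and at 25.8, 27.0 and 25.6 TPM in shNFKBIZ. The 3 shNFKBIZ libraries were close to one another and all above shCtrl. With 176, 175 and 181 reads against 413, 425 and 417, the log2 fold change was 1.22 (SE 0.0796), or 2.33-fold, which is smaller than that of MMP3. The ratio of MMP3 to MMP1 within a library was 0.386, 0.346 and 0.375 in shCtrl and 3.34, 3.06 and 3.57 in shNFKBIZ. The 2 genes thus changed places, MMP1 being the more abundant in every shCtrl library and MMP3 in every shNFKBIZ library.

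The other collagenase of the group, MMP13 (ENSG00000137745, chromosome 11, 102942995 to 102955732, minus strand), had 2, 2 and 1 exon reads in the shCtrl group, against 0, 0 and 0 in the shNFKBIZ group. MMP10, a second stromelysin (ENSG00000166670, chromosome 11, 102770502 to 102780628, minus strand), had no exon read in any of the 6 libraries. A count of 0 allows up to 3 reads per library, which corresponds to 0.165 to 0.184 TPM for MMP13 and 0.265 to 0.297 TPM for MMP10 (counting error only). Both groups lay at or under this limit for both genes, so no fold was formed, and a difference was not detectable at this depth.

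The gelatinases MMP2 and MMP9 degrade denatured collagen and the type of collagen found in basement membranes. MMP9 (ENSG00000100985, chromosome 20, 46008908 to 46016561, plus strand) had levels of 9.23, 10.1 and 12.8 TPM in shCtrl and of 56.1, 69.8 and 62.7 TPM in shNFKBIZ. Its libraries varied more among themselves than those of MMP1, yet the groups were well apart. From 134, 151 and 172 reads against 768, 938 and 871, its log2 fold change was 2.48 (SE 0.0952), or 5.58-fold. The antisense gene SLC12A5-AS1 overlaps it and strand was not used in the counting, but that gene held only 0 to 5 exon reads. MMP2 (ENSG00000087245, chromosome 16, 55389700 to 55506691, plus strand) had levels of 82.0, 85.2 and 89.8 TPM in shCtrl and of 120.9, 120.5 and 117 TPM in shNFKBIZ. Its groups did not overlap, and the log2 fold change of 0.40 (SE 0.0377), 1.32-fold, was small beside that of MMP9. The gelatinase that was already abundant in shCtrl cells thus had the smaller fold difference.

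MMP14, the membrane-anchored collagenase that also activates proMMP2 at the cell surface, was the most abundant of the 10 transcripts in every library (ENSG00000157227, chromosome 14, 22836560 to 22849041, plus strand). It measured 256, 265 and 292 TPM in shCtrl and 538, 596 and 529 TPM in shNFKBIZ. The groups were separated by far more than their spread, with means of 271 ± 19.1 and 555 ± 36.0 TPM (SD, n = 3). On 7353, 7865 and 7795 reads against 14578, 15838 and 14556, the log2 fold change was 0.95 (SE 0.0411), or 1.93-fold, just short of the threshold. With library size alone in place of TMM factors it was 1.04 and past the threshold. MMP1 at 1.22 was the member next inside the threshold, and MMP14 was the member next outside it. In TPM its gain exceeded that of the other MMP genes of the group together.

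TIMP1, which inhibits most secreted MMPs, was the more abundant inhibitor (ENSG00000102265, chromosome X, 47582408 to 47586789, plus strand). Its level was 229.03, 232.8 and 228.3 TPM in shCtrl and 338.1, 318.9 and 332.6 TPM in shNFKBIZ. Replicates lay close together and the groups did not overlap, with a log2 fold change of 0.44 (SE 0.0414), 1.35-fold. SYN1, the gene on the opposite strand that contains TIMP1, had 0 to 3 exon reads. TIMP2 (ENSG00000035862, chromosome 17, 78852977 to 78925387, minus strand) stood at 66.1, 70.9 and 64.7 TPM in shCtrl and at 81.7, 83.3 and 80.0 TPM in shNFKBIZ. The difference was the smallest of the 7, with a log2 fold change of 0.20 (SE 0.0423), 1.15-fold. Counted on exon-exon junctions alone it was 0.11 (SE 0.0743) and no longer met the limit on the adjusted p. CEP295NL, which overlaps TIMP2 on the same strand, had 3 to 9 exon reads. TIMP3, the inhibitor that stays bound to the matrix (ENSG00000100234, chromosome 22, 32801705 to 32863041, plus strand), had no exon read in any library, which allows up to 0.102 to 0.113 TPM, and SYN3, which surrounds it on the other strand, had 0 or 1.

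In shCtrl cells the order of the levels was MMP14, TIMP1, MMP2, TIMP2, then MMP9 and MMP1, then MMP3 and MMP13. MMP9 (9.23 to 12.8 TPM) and MMP1 (9.94 to 11.5 TPM) overlapped there and were not separated, while every other pair of neighbours above MMP13 had ranges that did not meet. In shNFKBIZ cells the order was MMP14, TIMP1, MMP2, then MMP3 and TIMP2, then MMP9 and MMP1. MMP3 (82.5 to 91.4 TPM) now overlapped TIMP2 (80.0 to 83.3 TPM), whereas in shCtrl cells TIMP2 had stood above MMP1, MMP9 and MMP3 alike.

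The summed level of the 7 MMP genes was 361, 373 and 411 TPM in shCtrl and 827, 896 and 826 TPM in shNFKBIZ. The summed level of the 3 TIMP genes was 295, 304 and 293 TPM in shCtrl and 420, 402 and 413 TPM in shNFKBIZ. Both sums were higher in every shNFKBIZ library than in any shCtrl library, the MMP sum by a ratio of means of 2.22 and the TIMP sum by 1.38. Within a library the MMP sum divided by the TIMP sum was 1.23, 1.23 and 1.40 in shCtrl and 1.97, 2.23 and 2.00 in shNFKBIZ, with means of 1.29 ± 0.101 and 2.07 ± 0.139 (SD, n = 3). These are ratios of transcripts and not of protein or activity. For the pair that acts on proMMP2, the ratio of MMP14 to TIMP2 was 3.87, 3.73 and 4.52 in shCtrl and 6.59, 7.15 and 6.62 in shNFKBIZ. The ratio of MMP2 to TIMP2 had means of 1.28 and 1.46, and that of MMP3 to TIMP1 had means of 0.0170 and 0.263.

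The composition of the MMP sum shifted as well. MMP14 made up 70.9% of it in shCtrl and 65.2% in shNFKBIZ, and MMP2 22.5% and 14.1%. MMP3 made up 1.02% and 10.2%, MMP9 2.78% and 7.39%, and MMP1 2.77% and 3.08%. Most MMP transcript mass in either group thus came from MMP14, and MMP3 went from the smallest share of the 5 detected enzymes to the third largest. TIMP1 held 77.4% of the TIMP sum in shCtrl and 80.1% in shNFKBIZ.

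**Figure D2:**
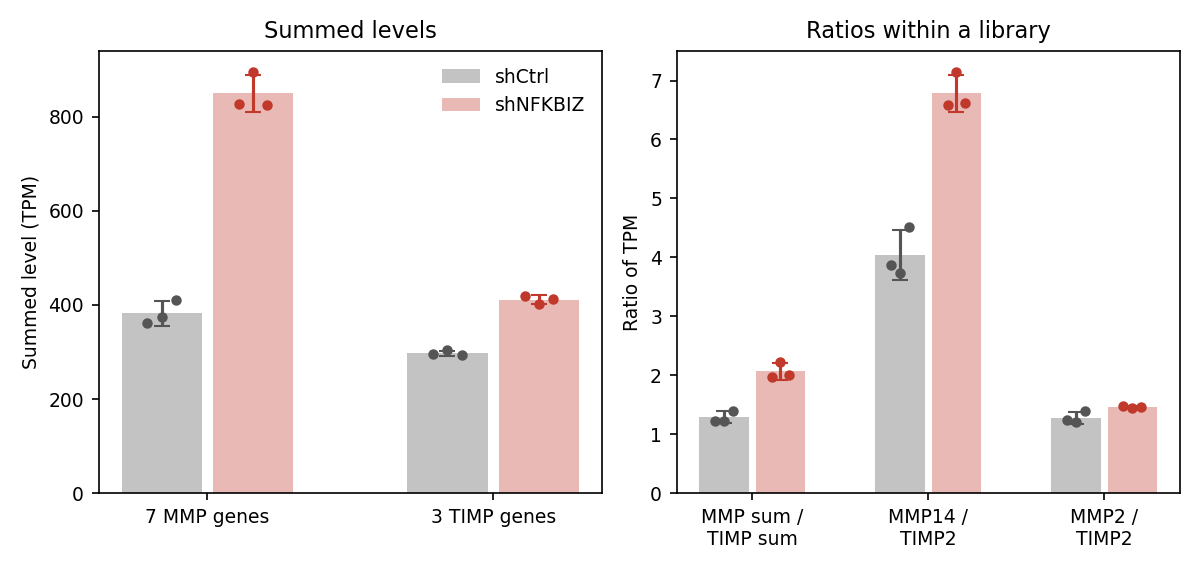
Summed TPM of the 7 MMP genes and the 3 TIMP genes (left) and ratios of TPM within a library (right) in shCtrl (grey) and shNFKBIZ (red). Bars are means, error bars SD and points the 3 libraries of a group; the MMP sum goes from 382 to 850 TPM and the TIMP sum from 297 to 412 TPM, and the MMP to TIMP ratio from 1.29 to 2.07.

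Intron reads come mostly from RNA that has not been spliced and were compared in the same way, over 12119 genes. Of the 10 genes, 5 passed the filter on intron reads. MMP3 alone was past the threshold, beside 6.6% of all genes tested (2.71% higher and 3.89% lower). MMP3 had 0, 0 and 2 intron reads in the shCtrl group, against 23, 23 and 25 in the shNFKBIZ group, so that it passed the filter only through the shNFKBIZ libraries. In sums these were 2 against 71 reads, a ratio of 34.7 with an exact 95% interval of 9.26 to 292 (counting error only). The interval pools the 3 libraries of a group. MMP3 was chosen with these reads known, so the interval is a description and not a test. The fitted log2 fold change was 4.83 (SE 0.573), and the exon change minus the intron change was -0.64 (SE 0.920), an error too wide to place one above the other.

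MMP14 was higher in intron reads as well, with 54, 51 and 55 in shCtrl and 72, 93 and 85 in shNFKBIZ. Its intron log2 fold change of 0.55 (SE 0.151) was 0.40 (SE 0.148) below its exon change. For TIMP2 the 2 kinds of reads went opposite ways. It had 93, 108 and 78 intron reads in the shCtrl group, against 56, 89 and 61 in the shNFKBIZ group, an intron log2 fold change of -0.53 (SE 0.151), and the groups overlapped in raw reads. The exon change of TIMP2 minus its intron change was 0.72 (SE 0.142). Of all 11025 genes fitted in both kinds of reads, 28.9% had exon and intron changes that differed at the limit on the adjusted p.

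MMP2 had 35, 39 and 30 intron reads in the shCtrl group, against 35, 24 and 26 in the shNFKBIZ group. Its intron log2 fold change was -0.38 (SE 0.221), short of the limit on the adjusted p, and the exon change minus the intron change was 0.78 (SE 0.216). TIMP1 had 20, 10 and 23 intron reads in the shCtrl group, against 23, 26 and 23 in the shNFKBIZ group, with an intron log2 fold change of 0.35 (SE 0.285), also short of that limit, and a difference from its exon change of 0.09 (SE 0.274). Of the 5 genes, MMP3, MMP14 and TIMP2 met the limit on the adjusted p, as did 38.8% of all genes. MMP1 and MMP9 had too few intron reads to be fitted, 1 against 10 reads for MMP1 (ratio 9.78, exact 95% interval 1.39 to 424) and 1 against 7 for MMP9 (ratio 6.84, interval 0.879 to 308). These intervals likewise pool the libraries of a group, on reads known when the genes were chosen, and are not tests.

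**Figure D3:**
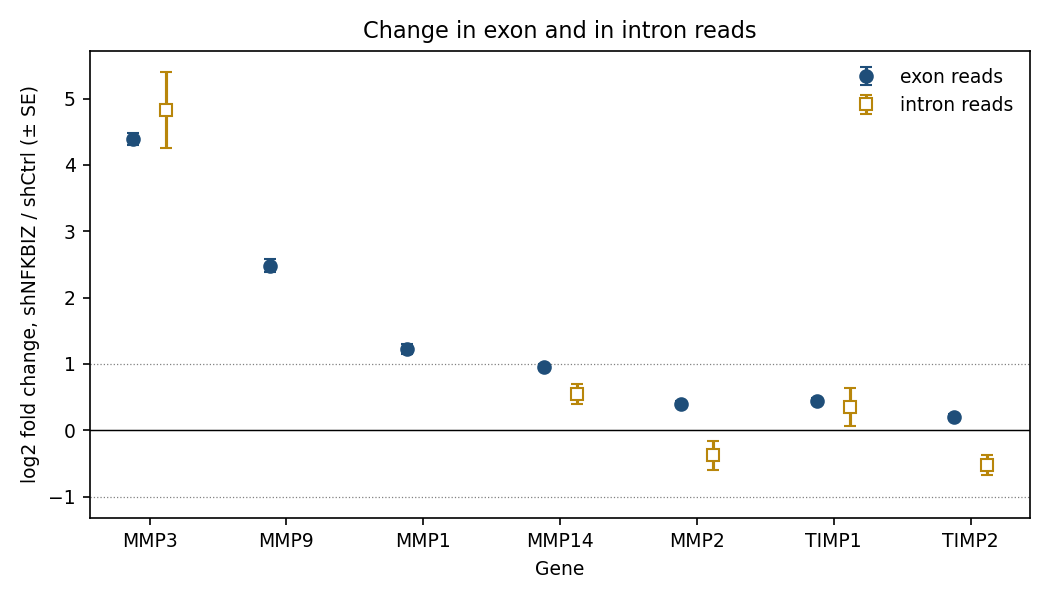
Log2 fold change of shNFKBIZ over shCtrl in exon reads (circles) and in intron reads (squares), with SE as error bars; MMP9 and MMP1 have no fitted intron value. MMP3 is high in both kinds of reads (4.39 and 4.83), whereas TIMP2 is above 0 in exon reads (0.20) and below 0 in intron reads (-0.53). MMP2 lies at 0.40 and -0.38, but its intron change is short of the limit on the adjusted p.

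MMP3 sits within a cluster of 9 MMP genes that spans 435 kb of chromosome 11, in map order MMP7, MMP20, MMP27, MMP8, MMP10, MMP1, MMP3, MMP12 and MMP13. Of these 9, 5 had no exon read in any library (MMP7, MMP20, MMP27, MMP10 and MMP12), including the direct neighbour on one side of MMP3, the macrophage elastase gene MMP12, whose start is 31.4 kb away. The 3 that passed the filter, MMP3, MMP1 and MMP8, were all past the threshold and higher in shNFKBIZ. MMP8, the neutrophil collagenase (ENSG00000118113, 102711796 to 102727050, minus strand), had 15, 16 and 20 exon reads in the shCtrl group, against 36, 47 and 47 in the shNFKBIZ group. It rose from 0.812 ± 0.171 to 2.16 ± 0.320 TPM (SD, n = 3), a log2 fold change of 1.33 with an SE of 0.243 (adjusted p = 5.9e-05, edgeR quasi-likelihood test), at a low level and with a start at -117 kb from that of MMP3 (negative toward lower coordinates). The starts of MMP1, MMP10 and MMP13 lie at -45.4 kb, -63.0 kb and 112 kb from it. Along the cluster, MMP10, with no exon read, thus stood between MMP8 and MMP1, and MMP12, also with none, between MMP3 and MMP13.

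Within 1 Mb of MMP3 the tables list 35 genes, of which 21 had an exon read and 12 were tested. Besides the 3 MMP genes, 9 others were tested, and 2 of them were past the threshold, both lower in shNFKBIZ. Over all genes tested the share was 8.96% (3.84% higher and 5.12% lower). TRPC6, a calcium-permeable channel, fell by 1.13 on the log2 scale (SE 0.191, adjusted p = 2.22e-05), from 62, 64 and 61 reads to 29, 25 and 32, although with all reads assigned to the gene it was short of 2-fold at -0.74. BIRC3, an inhibitor of apoptosis and a classical NF-κB target, had a log2 fold change of -1.01 (SE 0.0427), and it was short of 2-fold with library size alone (-0.92), without shCtrl replicate 1 (-0.99) and in junction reads (-0.99). Its neighbour and paralog BIRC2 changed by 0.39 (SE 0.0491) and the dynein gene DYNC2H1 by 0.76 (SE 0.0437), both with an adjusted p of at most 0.05 but short of 2-fold. TMEM123 at -0.14 (SE 0.0406) and DCUN1D5 at -0.26 (SE 0.0373) were likewise short of it, in the other direction. The transcriptional co-activator gene YAP1 (-0.05, SE 0.0333), the centrosomal gene CEP126 (0.07, SE 0.113) and the long non-coding gene ENSG00000288833 (0.36, SE 0.339) did not meet the limit on the adjusted p. None of the 9 non-MMP genes tested in this stretch was past the threshold in the direction of MMP3, beside a share of 3.84% over all genes. With so few genes nothing is read from this, and a test of the region as a whole was not made.

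**Figure D4:**
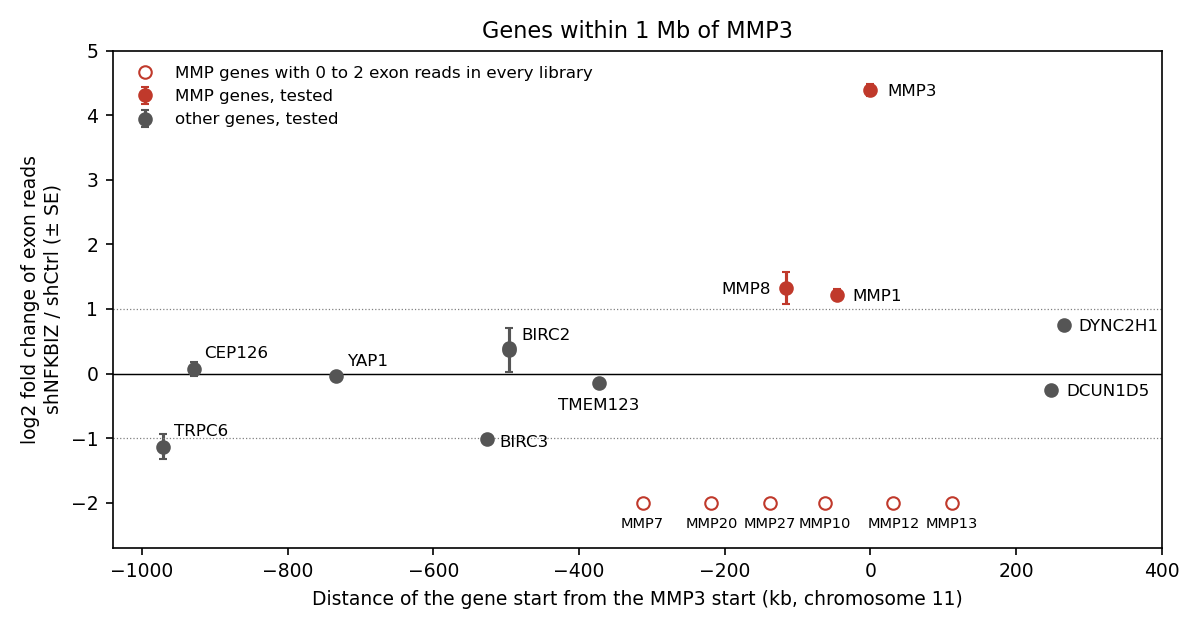
Log2 fold change in exon reads (± SE) of the genes tested within 1 Mb of MMP3, against the distance of the gene's start from that of MMP3 (kb); the unnamed point under BIRC2 is the long non-coding gene. Open circles at the bottom mark MMP genes with at most 2 reads per library, which have no fitted value. The 3 filled MMP points (MMP3 4.39, MMP8 1.33 and MMP1 1.22) lie above the dotted line for 2-fold, and none of the 9 other genes does. Of all genes tested, 3.84% were past the threshold and higher. MMP3 and MMP1 were chosen on this contrast.

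Of 16 other MMP genes, 7 had no exon read and 7 were tested. MMP8 alone was past the threshold, beside 8.96% of all genes tested. MMP11, at 5 to 22 reads and 0.85 (SE 0.355), passed 2-fold only without shCtrl replicate 2 (1.09) or without shNFKBIZ replicate 2 (1.03). Their median log2 fold change was 0.54. The most abundant of them, MMP16, a membrane-type MMP, had 3868, 3816 and 3681 reads in shCtrl and 5671, 5245 and 5829 in shNFKBIZ and is named here, like MMP17, after its values were seen. It went from 51.0 ± 1.86 to 78.7 ± 3.0 TPM (SD, n = 3), with log2 fold changes of 0.54 (SE 0.0398) in exon reads and 0.98 in intron reads, below 2-fold in each. MMP17, a membrane-type MMP with a lipid anchor, went the other way, with a log2 fold change of -0.57 (SE 0.0795). The 3 membrane-type genes with the most reads therefore did not share a direction.

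Among 9 other inhibitors of metalloproteinases, 3 were tested. TFPI2, a secreted Kunitz-type inhibitor of plasmin and of several MMPs, was more abundant than any TIMP in shCtrl cells. It had 12977, 13122 and 12469 exon reads in the shCtrl group, against 4883, 4758 and 4939 in the shNFKBIZ group. It fell from 858 ± 24.9 to 340 ± 1.32 TPM (SD, n = 3), a log2 fold change of -1.42 with an SE of 0.0329 (adjusted p = 2.5e-19, edgeR quasi-likelihood test), and fell in intron reads too (-1.83). The level of TFPI2 thus went from well above that of TIMP1 (230.1 TPM) to about that of TIMP1 (330 TPM). RECK, a membrane-anchored inhibitor, and THBS1, the matrix protein thrombospondin, were short of 2-fold with log2 fold changes of 0.28 (SE 0.0834) and 0.54 (SE 0.0470), and both are named after their values were seen.

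Of 13 genes of proMMP activation, 9 were tested, with a median log2 fold change of 0.01, 1 past the threshold and higher and 2 past it and lower. Over all genes tested, 3.84% were past it and higher and 5.12% past it and lower. PLAT, the tissue-type plasminogen activator, fell from 81.6 ± 2.74 to 24.4 ± 1.01 TPM (SD, n = 3), a log2 fold change of -1.82 with an SE of 0.0412 (adjusted p = 1.61e-19). PLAU, the urokinase-type activator, fell with a log2 fold change of -1.13 with an SE of 0.137 (adjusted p = 2.6e-07), on 163, 137 and 140 against 78, 65 and 60 reads. SERPINE2, a serpin that inhibits plasminogen activators and thrombin, rose with a log2 fold change of 1.69 with an SE of 0.166 (adjusted p = 9.95e-09), on 43, 33 and 29 against 109, 107 and 126 reads. Plasminogen itself, PLG, had 1 to 9 reads and was not tested. FURIN, the convertase that activates proMMP14 inside the cell and is named after its values were seen, did not meet the limit (0.01, SE 0.0397, adjusted p = 0.804).

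The list of AP-1 and ETS factors known as regulators of MMP genes had 14 of 16 members tested, with a median of -0.41. None was past the threshold and higher (3.84% of all genes), and 3 were past it and lower (5.12% of all genes). The 3 were JUND (-1.43, SE 0.0793), ETS1 (-1.04, SE 0.0317) and ATF3 (-1.03, SE 0.0734). ETS1 and ATF3 were short of 2-fold with library size alone (-0.95 and -0.94), and ATF3 also without shCtrl replicate 2 (-0.99). In junction reads ETS1 (-0.85) and ATF3 (-0.80) were short of 2-fold. JUND could not be tested there, because its exon length equals its gene length (1929 bases) and leaves no exon-exon junction. FOSL1, the most abundant factor of the list and named after its values were seen, had a log2 fold change of 0.73 (SE 0.0326) in exon reads and 0.08 in intron reads.

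None of the 8 tested ADAM genes of 11 listed was past the threshold, 1 met the limit on the adjusted p with a positive change and 5 with a negative one, and the median was -0.24. Over all genes tested, 8.96% were past the threshold. The limit on the adjusted p was met by 65.3% of them (32.5% higher and 32.8% lower). Of 19 ADAMTS genes 10 were tested, and the procollagen proteinase gene ADAMTS3 was past the threshold and lower, with a log2 fold change of -1.08 with an SE of 0.183 (adjusted p = 2.22e-05), on 74, 82 and 79 against 46, 32 and 34 reads. It was short of 2-fold without shNFKBIZ replicate 2 (-0.98) and with library size alone (-0.99). The median of the 10 was -0.50.

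Of 28 matrix substrates of MMPs, 17 were tested, with 2 past the threshold and higher, 3 past it and lower, and a median of 0.32. Of the 3 that fell, COL1A1, a chain of the main fibrillar collagen, went from 31.0 ± 1.52 to 8.85 ± 1.32 TPM (SD, n = 3), a log2 fold change of -1.89 with an SE of 0.0720 (adjusted p = 2.39e-12). COL3A1 was at 103, 99 and 101 reads in shCtrl and 2, 2 and 5 in shNFKBIZ, and COL1A2, at 15, 19 and 14 against 2, 1 and 0, had too few reads for the naming rule. COL3A1 and COL1A2 passed the filter on low counts only through the shCtrl libraries, and neither was tested where 10 counts were required of each library. COL5A1, a chain of another fibrillar collagen, rose with a log2 fold change of 1.34 with an SE of 0.171 (adjusted p = 5.28e-07) but was short of 2-fold with all reads assigned to the gene (0.88). The laminin chain gene LAMA4, at 9 to 15 against 23 to 35 reads and also below the limit of the naming rule, was the other that rose, and it too was not tested under that stricter filter. Over the 7 lists together, 14 of 68 genes tested (20.6%) were past the threshold, 4 higher and 10 lower. The share over all genes was 8.96% (3.84% higher and 5.12% lower). The lists were chosen with earlier results of these data known. Their counts and the p-values of their genes are therefore a description, and nothing is read from the counts. With library size alone the split was 6 higher and 7 lower.

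**Figure D5:**
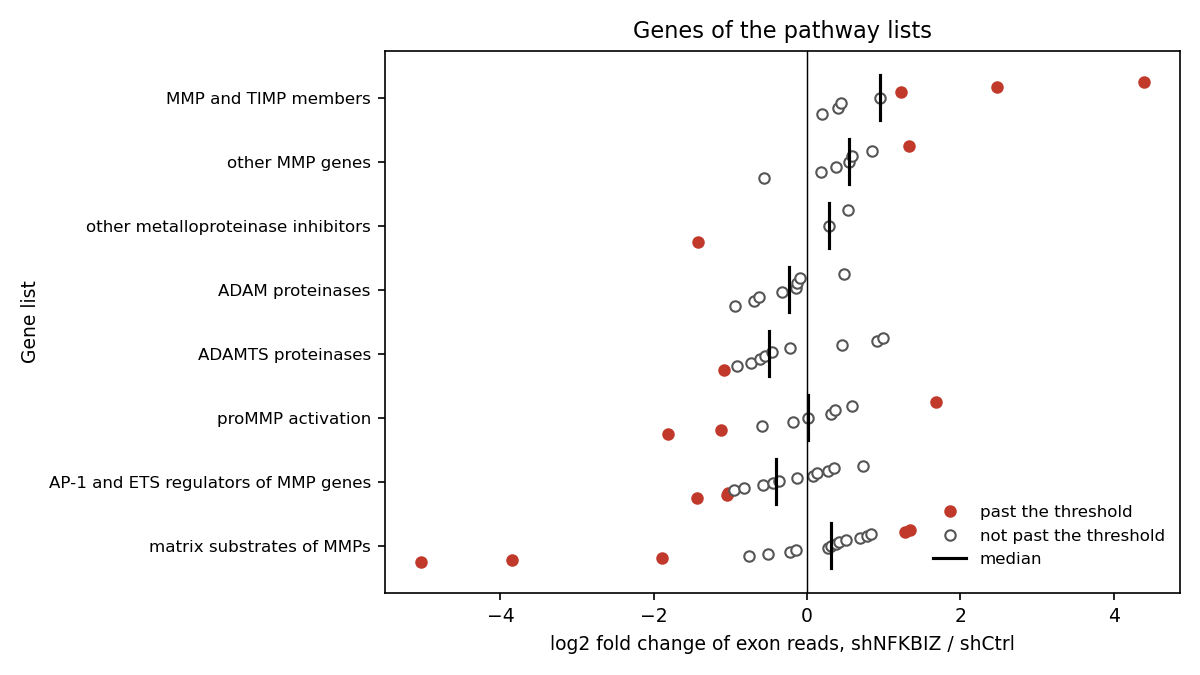
Log2 fold change in exon reads of the tested genes of each list; red points are past the threshold, open points are not, and black bars are medians. The MMP and TIMP members all lie above 0, having been chosen on this contrast, while the medians of the other lists run from -0.50 (ADAMTS) to 0.54 (other MMP genes).

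The genes whose pattern over the 6 libraries was most like that of MMP3 were sought among 11106 tested genes with a symbol and a mean of at least 50 reads, by the Euclidean distance between log2 CPM centred on each gene's mean. They were NTSR1, a neurotensin receptor gene, at a distance of 0.509, HMOX1, the gene of inducible heme oxygenase, at 0.709, and MN1, a transcriptional co-regulator gene, at 0.967. None of them is on chromosome 11. The distance is measured on the same libraries and mostly reflects the size of the group difference.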

How the data were processed

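The authors mapped the reads to GRCh38 (hg38) with CLC Genomics Workbench at default settings, which used no strand, and deposited per library whole-number counts of reads per gene, split into exon and intron reads. The sequencing provider is not given, since the labels and the methods differ on it. The members and lists were chosen with earlier results of these data known. TPM was recomputed from the total exon counts and exon lengths that the authors deposited.

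Total exon counts of all genes were filtered (filterByExpr) and compared with edgeR 4.0.16 in R 4.3.3 (TMM, glmQLFit with robust estimation, glmQLFTest, two-sided, Benjamini-Hochberg adjustment over all genes tested, no replicate block). SE is the log2 fold change divided by the square root of F. TMM factors were 0.964 to 0.979 in shCtrl and 1.02 to 1.04 in shNFKBIZ, so fitted folds are below ratios of TPM. Intron counts were fitted alike, and exon minus intron changes came from 1 model with library blocks. The fits were tested on simulated data. Named from each list were genes past the threshold with a mean of at least 50 reads and no overlap, at most 4 per direction. Alternatives were RLE factors, library size alone, other filters, unique, total gene and junction reads, DESeq2 1.42.0, a replicate block and leaving out each library. The study describes its replicates as independent, and the labels do not say how cultures were kept apart, so p-values measure the spread between these libraries. Exact intervals and floors cover counting error alone.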

Additional observations from a re-analysis of the deposited data

How the results depend on the processing

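The 3 members past the threshold became 7 with no fold change limit and 4 with library size alone, where MMP14 joined at 1.04, and stayed at 3 when any library was left out. Every tested member kept its direction in exon reads under every alternative. TIMP2 alone missed the limit on the adjusted p under one of them, junction reads (0.11). The 5 genes past the threshold around MMP3 became 9 with no fold change limit and 3 with junction reads (added after the data were seen), where BIRC3 was short of 2-fold and MMP8 was not tested, and were 4 to 5 without 1 library. The 14 list genes became 55 with no fold change limit (25 higher, 30 lower), 10 with junction reads (4 higher, 6 lower), 11 with a minimum of 10 counts per library (without COL3A1, COL1A2 and LAMA4), 13 with library size alone (6 higher, 7 lower), 20 with no filter (7 higher, 13 lower; MMP25, ADAM8, ADAMTS19, PLG, ELF3 and DCN joined), and were 14 to 15 without 1 library; beside the changes given with the genes, ADAMTS5 was past the threshold without shCtrl replicate 2 or shNFKBIZ replicate 1 (1.01 in the latter) and RUNX2 without shNFKBIZ replicate 3 (-1.05). In intron reads the 1 member past the threshold became 0 with that minimum, which drops MMP3, became 3 with no fold change limit, and stayed at 1 without any library. The ratio of summed MMP levels was 2.22 in TPM, 1.93 in CPM with TMM factors, and 2.16 to 2.31 without 1 library. NFKBIZ ranged from -1.83 to -1.72 without 1 library. Replicate numbers did not pair the libraries (correlations of deviations 0.0207, 0.0561 and 0.0288), and a replicate block left the counts at 3, 5, 14 and 1. Total gene reads were not fitted for introns. Depth limits MMP10, MMP13 and TIMP3 in exon reads and MMP1, MMP3 and MMP9 in intron reads.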
